A study of Mus musculus with 16 samples.

Results

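The junctions described here lie in genes that were hit 5 to 9 times in all over 16 libraries of translocation junctions from stimulated mouse B cells. Junctions were counted per gene label, as the deposited tables spell it, on the 17 autosomes other than chromosome 12, which holds Igh, and chromosome 15, which holds the cut Myc allele. Junctions with no label were left out, and rows that were identical within a library counted once. Of 6375 labels, 429 (6.73%) had 5 to 9 junctions. They held 2692 of 27770 autosomal junctions (9.69%), or 18.0% of those with a label. The members were chosen by the measured number of junctions per label over all 16 libraries, so their numbers of hits are a description and carry no test. The labels with 5 to 9 hits are called the moderately hit labels below, and all other autosomal junctions the rest.

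High-throughput genome-wide translocation sequencing maps where a known break, the bait, was joined to another broken end, the prey. Each row of a library is 1 such junction, with the prey's position on the mm9 build of the mouse genome. All libraries came from IgM+ splenic B cells of 129sv mice aged 6 to 8 weeks, whose 1 modified Myc allele carried 25 I-SceI sites in intron 1, cut by an I-SceI-GFP retrovirus.

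Cells given anti-CD40 (1 µg/mL) and IL4 (20 ng/mL) were infected at 24 h and collected on day 4, and they made 3 ATM-/- libraries (called ATM-deficient), 3 libraries of WT cells with the ATM inhibitor KU55933 at 10 µM from infection on, and 4 libraries of untreated WT cells. Cells given RP105 (2 µg/mL) were infected at 48 h and collected on day 5, and they made 3 libraries labelled ATM-deficient and 3 labelled WT. The share of junctions outside chromosome 15 that fell on chromosome 12 below 110 Mb, on the centromeric side of Igh, was 5.20% to 8.00% in ATM-deficient and 2.06% to 3.07% in WT libraries under anti-CD40/IL4. Under RP105 it was 3.07% to 4.58% in the libraries labelled ATM-deficient and 8.16% to 9.24% in those labelled WT, the reverse order, so these groups are named by their labels throughout. Nothing in the labels says whether replicates came from separate mice, so each spread given is that between libraries. The libraries held 4484 to 18264 junctions, of which 536 to 4630 were autosomal and 53 to 437 lay in moderately hit labels. All KU55933 and all RP105 libraries were read on a MiSeq, and all ATM-deficient and untreated WT libraries under anti-CD40/IL4 on a 454 sequencer. Neither the inhibitor nor the stimulus can therefore be told apart from the sequencer, and both comparisons between stimuli share this limit.

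The kinase ATM is activated by breaks of both DNA strands, sets off the damage response and helps hold broken ends together until they are joined. In activated B cells, the deaminase AID starts breaks in the switch regions of Igh and, less often, in other highly transcribed genes. Very long genes and gene-rich, early replicating regions are also known for breaking under replication stress. Breaks of AID targets usually lie close to a transcription start, whereas breaks in long genes spread over the gene body. Cryptic sites that I-SceI itself can cut give junctions on both sides of 1 position.

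The reads of 3 kinds of narrow label are shown first, since they mark the extremes of how junctions lay within a gene. The 1st kind had a prey end at the same base in several libraries. At the 12 positions shared by at least 3 libraries, which held 55 junctions, 51 junctions carried the same 12-base core on the read near the prey start. It is part of an 18-base stretch of unknown source, and reads with the core are said to carry the shared stretch below. The core was chosen as the one found at most of these positions, so the count of 51 follows in part from that choice. The first 30 prey bases of 3 such sites are given 5′ to 3′ as read, with capitals for the leading bases that also occur in that stretch. They are the minus strand of chr11:35684442-35684471 for Wwc1, the minus strand of chr14:61310828-61310857 for Spata13 and the plus strand of chr1:134124665-134124694 for Lemd1.
Wwc1: GTCCGACgagtcagtagccggggacagtgg
Spata13: GCTGCTAGTacgacgcgagtagtcatcgtg
Lemd1: CTGCTAGTCCGgcggggggatgcaggtgtg

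The 2nd kind held prey ends around the J segments of the kappa light chain locus, where RAG cuts in developing B cells next to a heptamer with the letters CACAGTG, which read CACTGTG on the other strand. Capitals mark that heptamer in the first 45 prey bases of 3 junctions. The first is the plus strand of chr6:70673847-70673891 in KU55933 replicate 3, the next the minus strand of chr6:70673869-70673913 in KU55933 replicate 1, and the last the minus strand of chr6:70675000-70675044 in WT anti-CD40/IL4 replicate 3.
Jk5, plus strand: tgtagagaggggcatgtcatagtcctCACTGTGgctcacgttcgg
Jk5, minus strand: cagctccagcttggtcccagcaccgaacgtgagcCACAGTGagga
Jk5-Ck intron, minus strand: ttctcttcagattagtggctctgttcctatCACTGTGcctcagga

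The 3rd kind held prey ends of opposite strand that faced away from nearly 1 position. In Slc2a7, 7 of 9 junctions lay within 34 bases in 5 libraries, 4 on the plus and 3 on the minus strand. The plus strand of chr4:149533943-149534016, put together from these reads, holds the letters CAGGGT, in capitals, preceded by a spacer of 1 base and the letters GGGATA. Both groups of letters are also part of the I-SceI site.
Slc2a7: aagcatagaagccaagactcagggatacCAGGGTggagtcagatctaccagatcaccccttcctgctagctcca

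Moderately hit labels took similar shares of the autosomal junctions in all 5 groups. Pooled over libraries, the share was 9.41% (533 of 5664, 95% Wilson interval 8.68 to 10.2) in ATM-deficient cells, 9.75% (1162 of 11912, 9.23 to 10.3) in KU55933-treated cells and 9.20% (336 of 3651, 8.31 to 10.2) in WT cells under anti-CD40/IL4. Under RP105 it was 10.0% (229 of 2279, 8.88 to 11.4) in the libraries labelled ATM-deficient and 10.1% (432 of 4264, 9.26 to 11.1) in those labelled WT. By stimulus, the pooled share was 10.1% (661 of 6543, 9.40 to 10.9) under RP105 and 9.57% (2031 of 21227, 9.18 to 9.97) under anti-CD40/IL4, or 9.33% (869 of 9315) in the anti-CD40/IL4 groups without KU55933. These intervals cover counting error only, since reads without molecular identifiers are not independent molecules.

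The libraries of the groups overlapped throughout. The ATM-deficient anti-CD40/IL4 libraries had 8.49%, 9.28% and 10.7%, the KU55933 libraries 10.2%, 10.0% and 9.27%, and the WT anti-CD40/IL4 libraries 9.06%, 8.71%, 9.67% and 9.11%. The libraries labelled ATM-deficient under RP105 had 11.4%, 9.47% and 9.75%, and those labelled WT 9.02%, 9.31% and 11.2%. The lowest and the highest library, ATM-deficient anti-CD40/IL4 replicate 1 and labelled ATM-deficient RP105 replicate 1, held 155 of 1826 and 61 of 536 junctions.

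Group means were 9.48% ± 1.10 in ATM-deficient (SD, n = 3), 9.81% ± 0.48 in KU55933-treated (n = 3) and 9.14% ± 0.40 in WT cells (n = 4) under anti-CD40/IL4, and 10.2% ± 1.03 in libraries with the ATM-deficient label and 9.83% ± 1.17 in those labelled WT under RP105 (n = 3 each). KU55933 replicates 1 and 2 stood above all 4 untreated WT libraries and replicate 3 did not. Where a sequencing run held both genotypes, ATM-deficient and WT libraries under anti-CD40/IL4 had 9.28% and 9.67% in 1 run and 10.7% and 9.11% in another. Under RP105, labelled ATM-deficient libraries had 11.4% and 9.47% and a labelled WT library 9.31% in 1 run, and 9.75% and 11.2% in another, so the order differed between runs. No test was made, because these libraries' own counts decided which labels were members. KU55933 supplied 42.9% of all autosomal junctions and 43.2% of those in moderately hit labels, so its libraries weighed most in that choice. Of the 429 labels, 119 would keep 5 junctions without the KU55933 libraries.

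**Figure D1:**
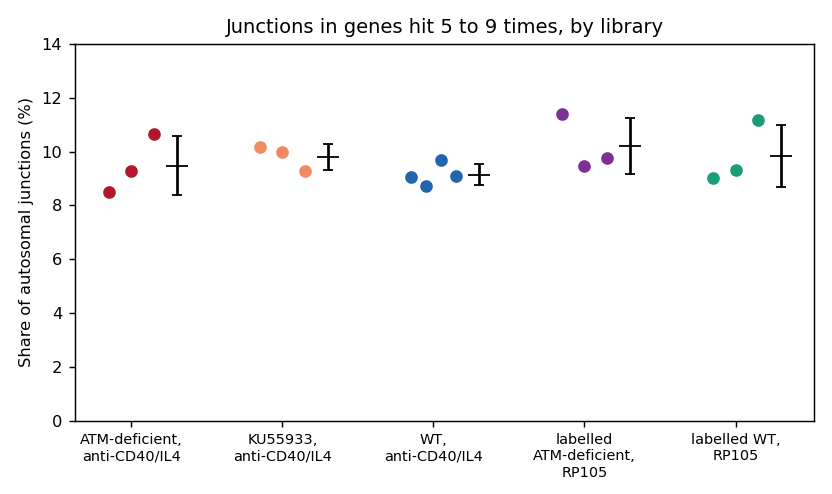
Share of each library's autosomal junctions (%) that lay in labels hit 5 to 9 times, by group; points are libraries and the bar beside them the mean with its SD. All 16 libraries lie between 8.49% and 11.4%, and the groups overlap.

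The labels with 10 or more junctions, 133 in all, took 18.5%, 13.5% and 10.3% of the KU55933 libraries' autosomal junctions, a mean of 14.1% ± 4.13 (SD, n = 3), and 9.43% ± 0.56 (n = 4) in WT cells under anti-CD40/IL4. Each moderately hit label was found in 2 to 9 libraries, with a median of 5, and 30 labels were hit in all 5 groups and 13 in 1 group only. Junctions of both stimuli were found in 319 labels. In 69 labels 1 library held as many junctions as all other libraries together, or more.

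At the edges of the class, 316 labels had 4 junctions and 161 had 5, while 41 had 9 and 17 had 10. The distance between the outermost junctions of a label had a median of 72.3 kb at 4 junctions, 99.5 kb at 5, 283 kb at 9 and 92.5 kb at 10. The share of junctions within 1 kb of a junction of another library in the same label was 16.9%, 18.0%, 22.0% and 38.2% at those hit numbers.

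Within most moderately hit labels the junctions were spread wide. The span between the outermost junctions had a median of 127 kb (95% interval 108 to 152, from the order of the 429 values), quartiles of 53.0 and 293 kb, and a maximum of 1658 kb in Macrod2. Neighbouring junctions were a median of 18.7 kb apart, against 0.563 kb in labels with 10 or more junctions. Of 2692 junctions, 552 (20.5%, 95% exact binomial interval 18.99 to 22.08, for counting error only) lay within 1 kb of a junction of another library in the same label. The share was 13.8% in labels hit 2 to 4 times and 71.2% in labels hit 10 or more times. The chance of a neighbour grows with the number of hits itself, so these shares are a description of how the 3 classes look. No junction of another library lay within 1 kb of any junction in 267 labels.

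By layout, 39 labels with 247 junctions (9.18%) were compact, with all junctions inside 10 kb and a median span of 3.87 kb. In 111 labels with 676 junctions (25.1%) no 2 libraries had junctions within 10 kb of each other, and the median span of these scattered labels was 344 kb. The other 279 labels, with 1769 junctions (65.7%), were mixed. Layout also depends on gene length, which was not available here. Compact labels held 10.8% of the moderately hit junctions in KU55933-treated cells (13.5%, 11.2% and 8.39% by library), 7.69% in ATM-deficient and 9.23% in WT cells under anti-CD40/IL4, 6.99% in the libraries labelled ATM-deficient under RP105 and 7.87% in those labelled WT.

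**Figure D2:**
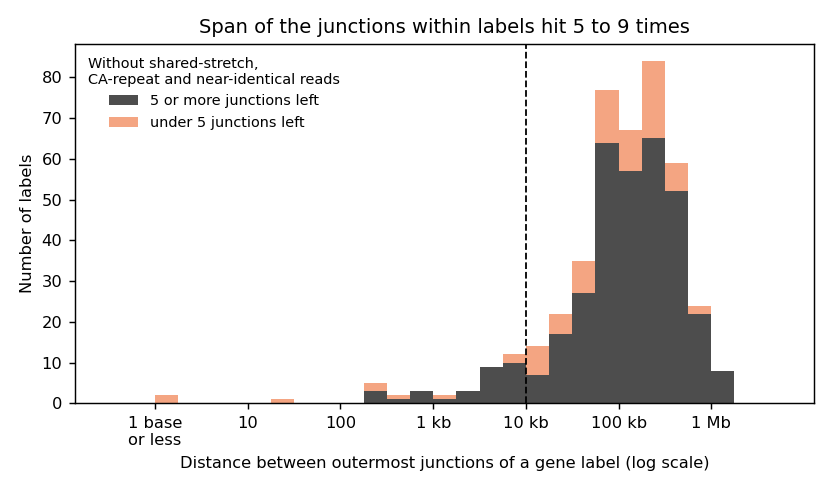
Number of labels by the distance between their outermost junctions (log scale, bases), with the dashed line at 10 kb. Light bars are the 80 labels that keep under 5 junctions without shared-stretch, CA-repeat and near-identical reads, dark bars the 349 others. Most labels lie right of 10 kb, and the leftmost are mostly light.

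Part of the narrowest labels consisted of reads with features that recurred at unrelated loci, whose source was not tested. The shared stretch was on 69 junctions (2.56%) in 21 moderately hit labels, against 502 (1.81%) of all autosomal junctions, and on none of these labels' reads in KU55933 replicates 2 and 3 and WT anti-CD40/IL4 replicate 2. Prey ends that began in a CA repeat made 148 junctions (5.50%) in 100 labels, near the 1302 (4.69%) of all autosomal junctions. They were 36.1%, 22.7% and 15.7% of moderately hit junctions in the libraries labelled ATM-deficient under RP105, 13.0%, 14.7% and 8.55% in those labelled WT, and 0% to 4.81% in the anti-CD40/IL4 libraries. In addition, 35 rows lay within 10 bases of another row of the same library, label and strand, 16 of them in labelled WT RP105 replicate 3. Without all of these, 349 labels kept 5 junctions or more. Compact labels then held 10.9% of the moderately hit junctions in KU55933-treated cells, 6.41% in both ATM-deficient and WT cells under anti-CD40/IL4, and 6.02% and 5.48% in the RP105 libraries labelled ATM-deficient and WT.

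Of the 5 narrowest labels, 4 held mostly such reads. All 9 junctions in Wwc1, a Hippo pathway scaffold, lay at 1 base in 9 libraries of all 5 groups, and all 9 reads had the shared stretch. The 6 junctions of 4931414P19Rik and 4 of the 5 in Fuz, which spanned 29 bases, had it too. In Sox13, 6 junctions spanned 196 bases and all began in a CA repeat: 1 came from KU55933 replicate 1, 2 from libraries labelled ATM-deficient and 3 from 1 library labelled WT under RP105. The Wwc1, Spata13 and Lemd1 sequences above end their likeness to the stretch after 7, 9 and 11 bases.

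Kappa light chain labels formed the other narrow set. This locus was singled out after its values were seen. The 4 labels Jk4, Jk5, Jk5-Ck intron and 5' edge Ck together held 24 junctions within 3.21 kb, from base 70673429 to 70676637 of chromosome 6, and none carried the shared stretch or a CA start. KU55933 replicates 1, 2 and 3 had 9, 4 and 6 of them, ATM-deficient anti-CD40/IL4 replicate 1 had 1, WT anti-CD40/IL4 replicate 3 had 3, and labelled ATM-deficient RP105 replicate 1 had 1. Thus 19 of 24 were from KU55933 libraries, which held 42.9% of autosomal junctions.

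Of the 4 labels, Jk5 was the narrowest, with 7 junctions in 204 bases, 6 of them KU55933 and 1 WT. In Jk4, KU55933 replicates 1 and 2 shared the prey end at base 70673701, with the same overlap of bait and prey. Both were read in the same sequencing run, and whether these are separate events was not tested. The heptamer stood in the first 45 bases of 6 of 23 readable kappa prey sequences (26.1%), against 1.62% of 2405 over all moderately hit labels and 1.29% of 22223 in the rest, searched as CACTGTG and CACAGTG on both strands. Matches in the same label came from overlapping reads of the same heptamer, so they do not count separate places. The 3 sequences above show it in both orientations, and the Jk5 pair reads the same heptamer from opposite strands. A match describes the letters in this window only.

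Genes known as AID off-targets were more often in the labels with 10 or more junctions. Of 40 such genes, 34 had a junction, 9 with 5 to 9 hits and 19 with 10 or more. The 9 moderately hit ones held 60 junctions, 15 in ATM-deficient, 35 in KU55933-treated and 7 in WT cells under anti-CD40/IL4, and 1 and 2 in the RP105 libraries labelled ATM-deficient and WT. KU55933 thus gave 58.3% of them, against 43.2% of all moderately hit junctions. Junb and Bach2 reached 5 hits through KU55933 junctions alone. Without the KU55933 libraries only Cd74 and Ciita would have had 5 hits, so this share is largely set by the choice of labels. The median span of the 9 genes was 25.1 kb, below the 127 kb of all moderately hit labels. A narrow span can come from a short gene, and gene lengths were not available here, so these spans are a description.

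Socs1, a feedback inhibitor of cytokine signalling on chromosome 16, had 9 junctions within 1.53 kb (bases 10783965 to 10785490), 6 of them on the plus strand. ATM-deficient replicates 1 and 3 had 2 and 1, KU55933 replicates 1, 2 and 3 had 1, 4 and 1, and neither the WT nor the RP105 libraries had any. All 9 lay within 1 kb of a junction of another library. Cd74, the invariant chain of MHC class II, had 9 junctions in 6.67 kb (chromosome 18, bases 60964259 to 60970924), 3 in ATM-deficient, 4 in KU55933-treated and 2 in WT cells under anti-CD40/IL4, and none under RP105.

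Rel encodes c-Rel, an NF-κB subunit of activated B cells. Of its 9 junctions, KU55933 replicate 2 alone had 6, KU55933 replicate 3 had 2 and WT anti-CD40/IL4 replicate 1 had 1. Their span of 25.1 kb came from 1 junction far from the others: 8 lay within 10 kb of a junction of another library. Junb, an AP-1 transcription factor, had 5 junctions in 0.901 kb, 3 in KU55933 replicate 2 and 2 in KU55933 replicate 3.

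Ciita, the transactivator of MHC class II genes, lies on the same chromosome as Socs1 and had no KU55933 junction. Its 7 junctions were 2, 1 and 1 in ATM-deficient replicates 1, 2 and 3, 1 each in WT anti-CD40/IL4 replicates 1 and 3, and 1 in labelled WT RP105 replicate 2. Pou2af1, a B cell coactivator, had 3 and 1 in ATM-deficient replicates 1 and 3 and 1 in KU55933 replicate 1. Bach2, a repressor that holds back plasma cell fate, had 1, 1 and 4 junctions in KU55933 replicates 1, 2 and 3 and none elsewhere, over 78.0 kb. Ikzf1 had 1 in ATM-deficient, 3 in KU55933-treated and 1 in WT cells, and Irf8 2 in KU55933-treated, 1 in WT and 1 in each RP105 group. With so few junctions per library, a gene's pattern can rest on 1 library, as in Rel and Bach2.

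Other compact genes followed a similar layout. Without the shared-stretch, CA-repeat and near-identical reads, 30 compact labels kept 5 junctions. With all their reads counted, 116 of their 193 junctions were from KU55933 libraries, which held 43.2% of all moderately hit junctions. Labels with KU55933 junctions only numbered 13 of all 429 and 6 of these 30. They reached 5 hits through that group alone, so these counts are a description. Those 6 were Jk4, Junb, Birc2, which encodes an inhibitor of apoptosis, Bcl2a1d, H2-DMb2 and Sema4b. Birc2 had 1, 4 and 2 junctions in KU55933 replicates 1, 2 and 3 within 4.68 kb, 5 of the 7 within 1 kb of a junction of another library. Bcl2a1d, an anti-apoptotic relative of Bcl2, had 2 and 5 in replicates 1 and 2, but it has near-identical copies, as H2-DMb2 has a close one, so the reads' place among copies is uncertain.

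Socs3, a relative of Socs1, had 1 junction in ATM-deficient and 4 in KU55933-treated cells within 0.653 kb. The phosphatase gene Dusp2 had 1 in ATM-deficient, 3 in KU55933-treated and 1 in WT cells within 0.738 kb. The NF-κB gene Nfkb2 had 1, 4 and 1 in those groups and 1 in a library labelled WT under RP105. In Tk1, thymidine kinase, the order differed: 1, 3 and 1 junctions came from ATM-deficient replicates 1, 2 and 3, 1 from KU55933 replicate 3, and 1 from labelled ATM-deficient RP105 replicate 3.

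**Figure D3:**
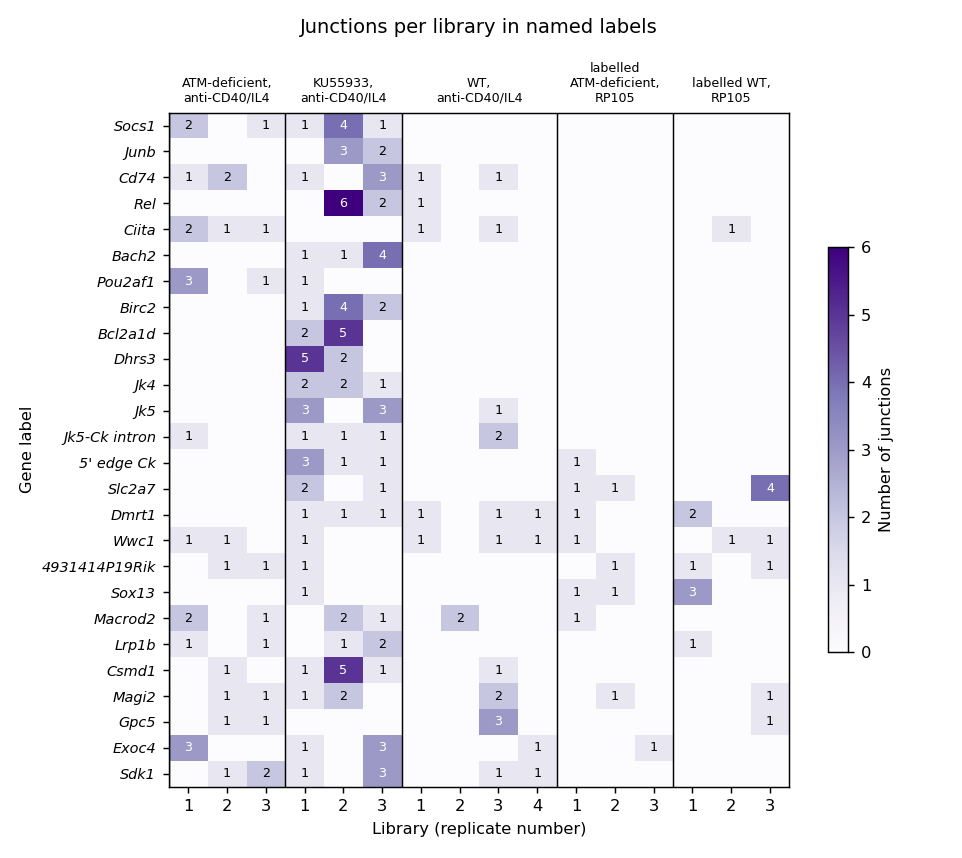
Junctions per library (columns, replicate number) in named labels (rows), with darker cells and printed numbers for more junctions and blank cells for 0. Jk4, Jk5, 5' edge Ck, Junb, Birc2, Bcl2a1d and Dhrs3 lie mostly in KU55933 columns. Jk5-Ck intron is also in WT and ATM-deficient columns under anti-CD40/IL4, while Wwc1 has 1 junction in each of 9 libraries of all groups.

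Genes of B cell signalling, transcription and antigen presentation had a median span of 79.9 kb. Of 78 listed genes, 63 had a junction, 14 of them with 5 to 9 hits and 93 junctions, of which 26 were in ATM-deficient, 41 in KU55933-treated and 13 in WT cells under anti-CD40/IL4 and 3 and 10 in the RP105 libraries labelled ATM-deficient and WT. Cd74, Ciita, Rel, Bach2, Ikzf1, Irf8 and Pou2af1 are on both this and the AID list. Dock10, which activates small GTPases, had 9 junctions over 254 kb, with 1, 2 and 1 in ATM-deficient replicates 1, 2 and 3, 2 and 2 in KU55933 replicates 2 and 3, and 1 in WT replicate 3.

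Signalling proteins of the B cell receptor were among these 14 genes. Pik3ap1, an adaptor that recruits PI3 kinase, had 8 junctions over 99.2 kb, none within 1 kb but 6 within 10 kb of a junction of another library. Blnk, which links the receptor to downstream enzymes, had 7 junctions, 2 in ATM-deficient and 3 in KU55933-treated cells under anti-CD40/IL4 and 2 in labelled WT RP105 replicate 3, with none within 1 kb and 5 within 10 kb of another library. Prkcb, a kinase below the receptor, had 7 over 210 kb in 7 libraries of all 5 groups, and Inpp5d, which encodes the phosphatase SHIP-1, 6 in 6 libraries of all 5 groups.

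Early replicating fragile sites gave 4 moderately hit genes of 23, namely Rel, Bach2, Ikzf1 and Bcl2, with 28 junctions. KU55933 libraries supplied 19 of them (67.9%), against 43.2% of all moderately hit junctions. Without those libraries Rel, Bach2 and Ikzf1 would not have had 5 hits, so this share is largely set by the choice of labels. Rel, Bach2 and Ikzf1 are AID list members as well. Bcl2, which blocks apoptosis, had 8 junctions over 164 kb: 1 and 3 in ATM-deficient replicates 1 and 3, 1 each in KU55933 replicates 2 and 3, and 1 each in WT replicates 1 and 2.

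Long genes and late replicating fragile sites were the largest list among moderately hit labels. Of 42 such genes, 37 had a junction, 20 with 5 to 9 hits, 10 with 10 or more and 7 with 1 to 4. The 20 genes held 142 junctions, 28 in ATM-deficient, 71 in KU55933-treated and 23 in WT cells under anti-CD40/IL4, and 7 and 13 in the RP105 libraries labelled ATM-deficient and WT. Their spans ran from 268 to 1658 kb, with a median of 794 kb, and no gene of the list was compact. A wide span needs a long gene, so the spans of this list are a description.

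Macrod2, a hydrolase of ADP-ribose marks, had the widest span, with 9 junctions: 2 and 1 in ATM-deficient replicates 1 and 3, 2 and 1 in KU55933 replicates 2 and 3, 2 in WT replicate 2 and 1 in labelled ATM-deficient RP105 replicate 1. None lay within 10 kb of a junction of another library, and neighbours were a median of 190 kb apart. In Csmd1, a very large membrane protein, 9 junctions spread over 1462 kb, and KU55933 replicate 2 held 5 of them. Lrp1b, a lipoprotein receptor relative, had 6 over 1465 kb: 1 and 1 in ATM-deficient replicates 1 and 3, 1 and 2 in KU55933 replicates 2 and 3 and 1 in labelled WT RP105 replicate 1.

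The glypicans Gpc5 and Gpc6 are neighbours on chromosome 14. Gpc5 had no KU55933 junction and 3 in WT replicate 3, 1 each in ATM-deficient replicates 2 and 3 and 1 in labelled WT RP105 replicate 3, whereas Gpc6 had 4 in KU55933 replicate 2. Exoc4, an exocyst subunit, had 9 junctions over 535 kb, 3 in ATM-deficient replicate 1 and 3 in KU55933 replicate 3. Magi2 and Sdk1, which encode a synaptic scaffold and an adhesion molecule, had 9 each over 1366 and 614 kb. Magi2 was hit in all 5 groups.

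Genes of the double-strand break response held 1 moderately hit label. Of 43, 19 had a junction, 18 of them (94.7%) 1 to 4, near the 91.2% of all 6375 labels, and only Fancc, of the Fanconi anaemia core complex, had 5: 1 each in ATM-deficient replicates 1 and 2, KU55933 replicates 1 and 2 and WT replicate 3. Of 16 genes listed as marking other cell types, 4 had 1 to 4 junctions and none was moderately hit. A junction is a join of DNA, so it says nothing of a gene's expression or of which cells were present.

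**Figure D4:**
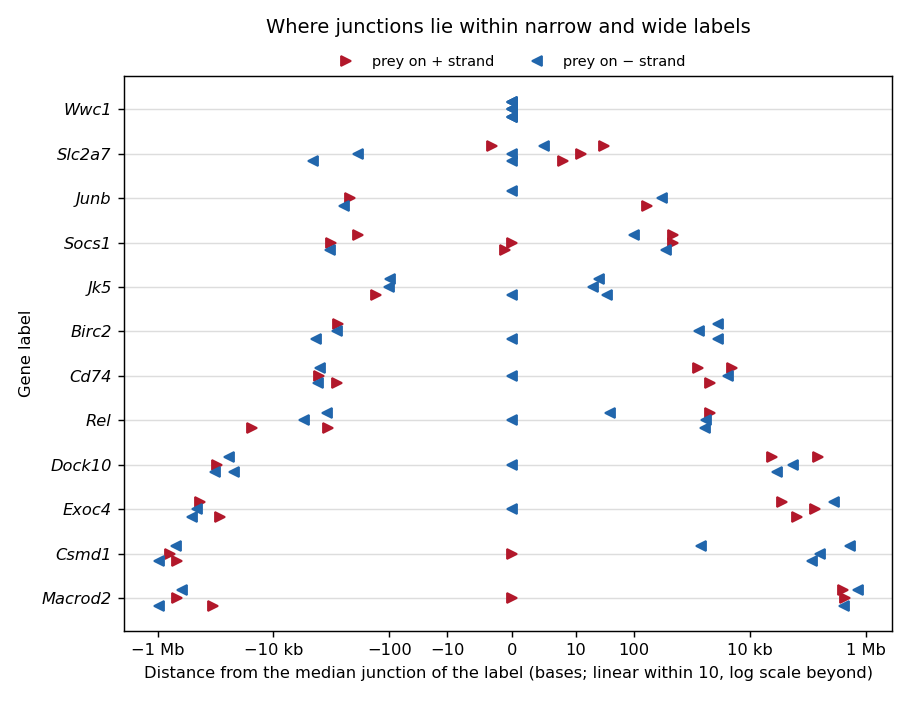
Distance of each junction from the median junction of its label (bases, linear within 10 and on a log scale beyond), with triangles for the prey strand. Wwc1 is a single position, Slc2a7 has both strands within 34 bases apart from 2 junctions, and in Dock10, Exoc4 and the other long genes most junctions lie many kb apart, with 2 of the Csmd1 junctions 1415 bases from each other.

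Prey ends of opposite strand facing away from a shared position, in different libraries and with the plus-strand end from 10 bases before to 30 bases after the minus-strand end, were found in 11 moderately hit labels with 31 junctions. Besides Slc2a7, a sugar transporter gene, these included Tram2 with 4 junctions, and Dmrt1, a testis regulator, and Havcr1 with 3 each. Slc2a7 had 2 in KU55933 replicate 1, 1 in KU55933 replicate 3, 4 in labelled WT RP105 replicate 3 and 1 each in labelled ATM-deficient RP105 replicates 1 and 2. Dmrt1 had 9 junctions in 3.95 kb, 1 in each of the 3 KU55933 libraries, 1 each in WT anti-CD40/IL4 replicates 1, 3 and 4, 1 in labelled ATM-deficient RP105 replicate 1 and 2 in labelled WT RP105 replicate 1.

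The reads covered the whole site in 3 of the 11 labels, and 1 of them, Slc2a7, held the I-SceI letters. The hexamer CAGGGT, searched as such and as ACCCTG, was in the first 45 prey bases of 3.91% of moderately hit junctions and 3.46% of the rest, and AGCT, a letter group that AID favours, in 20.1% and 19.9%. In compact labels AGCT was found in 25.5% of 216 readable junctions.

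The share of autosomal junctions in moderately hit labels varied by chromosome, from 15.3% on chromosome 19 and 13.0% on chromosome 11 to 5.52% on chromosome 2 and 5.23% on chromosome 3. Promoters as RefSeq gives them (GRCm38.p6, from 250 bases before to 50 after a start) were matched by symbol for 315 labels, and the prey reads were searched for in them. Of their 1979 junctions, 9 in 6 labels fell in the gene's own promoter window (0.455%), against 0.870% in other labels. In Myo1c, a myosin gene, 3 of the 8 junctions fell there, at 25 and 29 bases after the start and all on the plus strand. Of these, 1 was in labelled ATM-deficient RP105 replicate 3 and 2 in labelled WT RP105 replicate 3. Both libraries were read in the same sequencing run, and whether the 3 are separate events was not tested.

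No moderately hit label was called different between groups, but a call is hard to reach with so few junctions per label. The same counts also decided which labels were members. The lack of calls is therefore a description and does not show that the groups were alike. Counts per label were compared with edgeR's quasi-likelihood test over 562 labels with at least 5 junctions, with Benjamini-Hochberg adjustment and a threshold of 0.05. In each of 6 comparisons 0% of the labels tested were called, and 0 of the 429 moderately hit labels. DESeq2 called none of the 429 either. The ATM-deficient and KU55933 comparisons share the 4 WT libraries.

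At an unadjusted p under 0.05, ATM-deficient against WT cells under anti-CD40/IL4 gave 6 moderately hit labels (1.40% of 429), against 2.14% of all labels tested. KU55933-treated against WT cells gave 13 (3.03% against 6.23%), all lower, and ATM-deficient against KU55933-treated cells 17 (3.96% against 5.69%), 10 higher and 7 lower. Under RP105 the libraries labelled ATM-deficient against those labelled WT gave 4 (0.932% against 0.89%), all higher. RP105 against anti-CD40/IL4 gave 9 in the libraries labelled WT (2.10% against 4.27%) and 10 in those labelled ATM-deficient (2.33% against 4.45%). Except in the RP105 genotype comparison, these shares were below the background of all labels, which includes the labels with 10 or more junctions. A low p is harder to reach with 5 to 9 junctions, so these shares do not set the moderately hit labels apart. The directions depend on depth as well. WT libraries under anti-CD40/IL4 held 3651 autosomal junctions, against 11912 of KU55933. Under RP105 those labelled ATM-deficient held 2279 and those labelled WT 4264. An excess in the shallower group reaches a low p with fewer junctions, so these directions carry no finding.

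The lowest edgeR adjusted p of a moderately hit label was 0.758 for ATM-deficient against WT cells, 0.689 for KU55933-treated against WT cells, 0.634 for ATM-deficient against KU55933-treated cells, 0.810 between the RP105 groups, and 0.644 and 0.754 between stimuli in libraries labelled WT and ATM-deficient. A count of 0 allows up to 3 junctions, which is 0.530 per 1000 autosomal junctions in ATM-deficient, 0.252 in KU55933-treated and 0.822 in WT cells under anti-CD40/IL4 and 1.32 and 0.704 in the RP105 libraries labelled ATM-deficient and WT. With 5 to 9 junctions over 16 libraries, a difference of a few junctions in a single gene was not detectable at this depth.

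The labels with the most uneven counts show this. Ciita had 4 junctions in ATM-deficient and 0 in KU55933-treated cells, and Gramd1b 0 in ATM-deficient and 4 in WT cells, all 4 in WT replicate 3. Fam53b had 1 and 3 in labelled ATM-deficient RP105 replicates 1 and 2 and 0 in the libraries labelled WT. Under RP105 the libraries labelled WT supplied 5 of the 6 junctions of both Pdss2 and Rilpl2, 4 of them in a single library in each case, and 2 of the Rilpl2 reads carried the shared stretch. Dhrs3, a retinal reductase, had 5 and 2 in KU55933 replicates 1 and 2, where replicate 3 had none.

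Differences in microhomology and strand between moderately hit labels and the rest did not pass the threshold, but the strand difference did pass it when the rest was limited to labelled junctions. Microhomology, taken as 1 to 10 bases shared by bait and prey on the read, was found in 1341 of 2692 junctions (49.8%). Another 504 (18.7%) were joined directly, 576 (21.4%) had inserted bases, and 271 (10.1%) overlapped by more than 10 bases. Over 16 libraries the microhomology share averaged 47.6% in moderately hit labels and 49.7% in the rest, a difference of -2.12 points (SE 1.72, higher in 6 of 16 libraries, exact two-sided sign-flip test p = 0.244, adjusted p = 0.488 over 14 tests). The share of prey ends on the plus strand averaged 47.5% and 50.2%, a difference of -2.76 points (SE 1.03, higher in 5 of 16, exact p = 0.0131, adjusted p = 0.184). Against other labelled junctions only, it was -3.39 points (exact sign-flip p = 0.00287, adjusted p = 0.0402).

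By group, microhomology was found in 52.9%, 52.4% and 58.3% of moderately hit junctions in the ATM-deficient, 44.3%, 49.9% and 57.1% in the KU55933 and 48.0%, 43.1%, 55.0% and 35.8% in the WT libraries under anti-CD40/IL4. The means were 54.5% ± 3.30 in ATM-deficient (SD, n = 3), 50.4% ± 6.44 in KU55933-treated (n = 3) and 45.5% ± 8.07 in WT cells (n = 4). ATM-deficient cells were 9.07 points higher than WT cells (SE 4.46, exact two-sided permutation test p = 0.171, adjusted p = 0.467), and KU55933-treated cells 4.95 points higher (SE 5.49, exact p = 0.4, adjusted p = 0.6). Each pair of groups overlapped. Leaving out 1 library, the difference from WT cells ran from 5.86 points (without WT replicate 4) to 12.2 points (without WT replicate 3) for ATM-deficient cells, and from 1.60 points (without KU55933 replicate 3) to 8.12 points (without WT replicate 3) for KU55933-treated cells. In the 2 runs that held both genotypes, ATM-deficient and WT libraries had 52.4% and 55.0% in 1 run and 58.3% and 35.8% in the other.

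Under RP105 the libraries labelled ATM-deficient had 31.1%, 43.9% and 38.2% and those labelled WT 52.0%, 54.7% and 44.9%, with no overlap. The difference of -12.7 points (SE 4.72) gave an exact permutation p of 0.1, the smallest that 3 against 3 libraries allow, and an adjusted p of 0.467. The libraries labelled ATM-deficient also differed by -16.8 points (SE 4.16) between RP105 and anti-CD40/IL4, again with no overlap and an exact p of 0.1. That difference was -6.66 points without CA-repeat starts (exact permutation p = 0.3), where 54.9% in labelled ATM-deficient RP105 replicate 2 lay above 53.2% and 52.4% in ATM-deficient anti-CD40/IL4 replicates 1 and 2, and -6.92 points when microhomology needed at least 2 bases (exact p = 0.1). Overlaps of more than 10 bases were 42.6%, 27.3% and 22.5% of moderately hit junctions in libraries with the ATM-deficient label and 13.0%, 18.7% and 12.8% in those labelled WT under RP105. Of the CA-repeat starts, 113 of 148 (76.4%) were such long overlaps. Within runs, labelled ATM-deficient libraries had 31.1% and 43.9% and a labelled WT library 54.7% in 1 run, and 38.2% and 44.9% in another. Without CA-repeat starts the microhomology shares were 48.7%, 54.9% and 40.7% in libraries with the ATM-deficient label and 57.9%, 62.5% and 46.3% in those labelled WT, which overlapped.

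**Figure D5:**
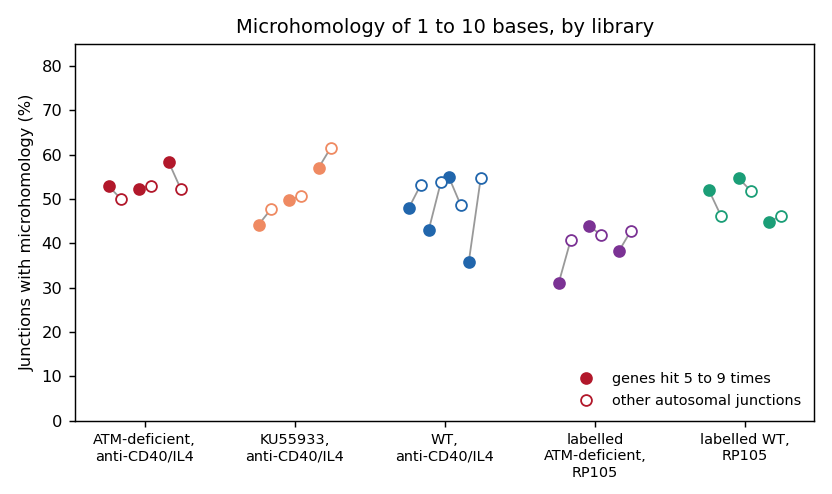
Share of junctions with 1 to 10 bases of microhomology (%) in each library, by group; filled points are labels hit 5 to 9 times and open points the other autosomal junctions of the same library, joined by a line. Filled points of the 3 libraries labelled ATM-deficient under RP105 lie at 31.1% to 43.9%, below those of the libraries labelled WT.

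No difference in strand share between groups passed the threshold. The plus strand held 49.2% ± 2.19 of moderately hit junctions in ATM-deficient (SD, n = 3), 49.4% ± 2.30 in KU55933-treated (n = 3) and 48.5% ± 3.37 in WT cells (n = 4) under anti-CD40/IL4, and 47.7% ± 3.29 in libraries with the ATM-deficient label and 42.3% ± 5.35 in those labelled WT under RP105 (n = 3 each). The differences ran from -6.20 points (SE 3.52), for RP105 against anti-CD40/IL4 in libraries labelled WT, to 5.42 points (SE 3.63), for labelled ATM-deficient against labelled WT under RP105, with exact permutation p-values of 0.143 and 0.2 and an adjusted p of 0.467 for both. Leaving out 1 library, the first ran from -9.06 to -3.76 points and the other from 2.98 to 8.28 points.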

How the data were processed

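Junction tables of 16 libraries were deposited as text, 1 row per junction with coordinates on mm9, per the submitters' processing notes; for the aligner and filters the sources used here give nothing. The authors' tables give alignment positions in bases, a gene label and Gap1, the prey start minus the bait end on the read, which was checked against the reads of every library. A PCR count per junction, deposited in some tables, was not used as a weight. The members and gene lists were chosen with earlier results of these data known. Junction counts per label were computed here from the deposited rows and tested with edgeR 4.0.16 (quasi-likelihood, library size as autosomal junctions, 16 libraries in 1 fit) in R 4.3.3, tested on simulated data, with DESeq2 1.42.0 as an alternative. Shares were compared with exact permutation tests (Python 3.11.15). Named labels were up to 10 per list by junctions, the 5 narrowest and 5 widest, up to 3 per group by excess, and the 5 with most neighbours within 1 kb; others are examples chosen after their values were seen. The labels state no pairing of replicates. No main test took replicate numbers as pairs, and a replicate block, which does, was run as an alternative in every comparison. In the RP105 groups the chromosome shares of each pair had a positive r (0.397, 0.452 and 0.240 over 17 chromosomes). Of these 3 pairs, 2 shared a sequencing run. ATM-deficient and KU55933 libraries of the same number had r of 0.373, -0.124 and 0.584 and shared no run, so r alone does not settle the pairing. The block changed no call under RP105. Alternatives varied the class limits, denominators, windows, filters and libraries.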

Additional observations from a re-analysis of the deposited data

Results flagged for a closer look

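In WT anti-CD40/IL4 libraries, 34.0% of replicate 4's junctions in moderately hit labels had inserted bases, against 21.4%, 20.0% and 21.7% in replicates 1, 2 and 3. The gap to the others was 0.881 of the range, above Dixon's critical value of 0.829 for 4 libraries. Chance exceeds that value in about 1 in 20 groups, and the other 6 of the 7 measures tested in this group stayed below it, at 0.589 or less. This library held 53 such junctions, and 7 of them carried the shared stretch. The part of those reads in the result was not tested.

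The microhomology difference between ATM-deficient and WT libraries differed between the stimuli if the RP105 labels hold, although the chromosome 12 shares under RP105 run against those labels. It was -12.7 points under RP105, by the labels, and 9.07 points under anti-CD40/IL4, so the 2 differed by -21.8 points (exact permutation of the labels within each stimulus, 700 arrangements, p = 0.0143, adjusted p = 0.0286 over 2 measures). The replicate block under RP105, which takes replicate numbers as pairs, left the difference at -21.8 points. Its exact permutation p was 0.0214 (280 arrangements, adjusted p = 0.0429). With the RP105 labels turned round the effects were 12.7 and 9.07 points, which differed by 3.68 points (exact permutation p = 0.709). Leaving out 1 of the 13 libraries, the difference ran from -25.0 to -18.5 points with adjusted p of 0.01 to 0.0733, and it did not pass the threshold without ATM-deficient replicate 3 or WT replicate 1, 2 or 4 under anti-CD40/IL4, or without labelled ATM-deficient replicate 1 or labelled WT replicate 1 or 2 under RP105 (exact permutation throughout). All RP105 libraries were read on a MiSeq and these anti-CD40/IL4 libraries on a 454 sequencer, so stimulus and sequencer cannot be told apart. Without CA-repeat starts the 2 effects were -7.46 and 8.84 points, which differed by -16.3 points (exact permutation p = 0.0586, chosen after seeing the data). In the rest they were -6.24 and -0.843 points, which differed by -5.40 points (exact permutation p = 0.151).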

How the results depend on the processing

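Of 430 alternatives over 28 results, 220 left out 1 library. The value took the other sign in 28, namely 17 of 113 for the difference in moderately hit share, which has no test, and 11 for plus-strand differences, and 1 tested difference crossed the threshold. No moderately hit label was called in the 101 edgeR or DESeq2 fits that tested such labels, of 107 in all. The lowest adjusted p of such a label in these fits was 0.101. A call is hard to reach with so few junctions per label, so these fits do not decide whether groups differ. Labels hit 10 or more times were called in 10 fits. TMM factors called 19 labels for KU55933 against WT cells, 3 for ATM-deficient against KU55933-treated cells and 3 for RP105 against anti-CD40/IL4 in libraries labelled ATM-deficient. The last also had 1 label with library sizes outside chromosome 15, with at least 10 junctions, with only the 2 groups fitted, with DESeq2 and with near-identical rows counted once. Without labelled WT RP105 replicate 3, RP105 against anti-CD40/IL4 in libraries labelled WT called 1 label, and 0 without each other one.

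No main test took libraries as paired by replicate number, since the labels state no pairing. As an alternative, the replicate block under RP105 left the microhomology difference at -12.7 points (exact sign-flip p = 0.25, adjusted p = 0.5). With the replicate block, ATM-deficient against KU55933-treated cells called 1 label, and the plus-strand differences turned to -0.356 points for ATM-deficient and -0.184 points for KU55933-treated against WT cells. The block changed no other call or direction.

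Leaving out 1 library at a time, the plus-strand difference ran from -0.356 to 2.05 points for ATM-deficient against WT, -0.447 to 2.22 for KU55933 against WT, -0.872 to 1.16 for ATM-deficient against KU55933, and -2.75 to 0.395 for RP105 against anti-CD40/IL4 in libraries labelled ATM-deficient. For ATM-deficient against KU55933 it was 0.150 points without CA-repeat starts and 0.0291 with near-identical rows counted once. Against the other labelled junctions only, moderately hit labels differed in plus-strand share by -3.39 points (exact sign-flip p = 0.00287, adjusted p = 0.0402), past the threshold.

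The difference in moderately hit share had no stable direction. For ATM-deficient against WT cells (0.342 points) it was -0.0355 with 6 to 10 hits, -0.173 with hits counted in the 15 other libraries and -0.253 without ATM-deficient replicate 3. For ATM-deficient against KU55933 (-0.332) it was 0.218 with 4 to 8 hits, 0.299 without junctions within 1 kb of another library and 0.163 without ATM-deficient replicate 1. For labelled ATM-deficient against labelled WT under RP105 (0.367) it was -0.465 with 4 to 8 hits, -0.145 without CA-repeat starts, -0.149 within runs, and -0.223 and -0.0369 without replicate 1 of the ATM-deficient and of the WT label. For RP105 against anti-CD40/IL4 in libraries labelled ATM-deficient (0.722) it was -0.207 without junctions within 1 kb of another library and -0.0588 without CA-repeat starts, and in those labelled WT (0.696) -0.00805 without such near junctions. For KU55933 against WT (0.674) it was -0.0239 points with 6 to 10 hits, 0.240 with hits counted in the 15 other libraries, and 0.172 without junctions within 1 kb of another library. Hits in the 15 other libraries gave 1.91 points for labelled ATM-deficient against labelled WT under RP105. For RP105 against anti-CD40/IL4 in libraries labelled WT the difference was 2.04 points over labelled junctions, 1.61 with 4 to 8 hits, -0.111 with 6 to 10 hits and -0.817 with hits in the 15 other libraries, and in those labelled ATM-deficient 1.89 over labelled junctions. The share within 1 kb was 15.5% with 1 junction per position, 18.1% without the shared stretch, 47.8% within 10 kb, 12.1% within 100 bases and 17.4% to 20.6% leaving out 1 library. The cause was not tested.

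The 5 to 9 junctions of a label limit what can be seen for single genes. Hit numbers depend on depth, to which KU55933 libraries contributed most, and alternatives on the shared stretch, CA repeats and near-identical rows were chosen after seeing the data.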
